A study of Homo sapiens with 18 samples.

Results

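The integrated stress response was followed through 10 of its regulator genes (ATF4, ATF3, DDIT3, TRIB3, CHAC1, CEBPB, CEBPG, PPP1R15A, SESN2 and NUPR1) in MDA-MB-231 cells, a human breast cancer line of mesenchymal type. The genes were taken as a named set, which was chosen with earlier results of these data known. Every probe set that the platform's gene table assigns to one of these symbols alone was used. This gave 10 of 19775 named genes and 16 of 54613 probe sets. The cells had been incubated without serum for 16 hours at 20% oxygen (normoxia) or 1% oxygen (hypoxia), either without drug or exposed to paclitaxel at 50 µM or to epirubicin at 10 µM, before RNA was extracted and hybridized to the HG-U133 Plus 2.0 array of Affymetrix. Paclitaxel stabilizes microtubules and blocks mitosis, and epirubicin is an anthracycline that intercalates in DNA and poisons topoisomerase II. The 6 conditions are named N and H (control cells in normoxia and hypoxia), N tax and H tax (paclitaxel), and N epi and H epi (epirubicin), with 2 arrays each. All 6 share the serum-free medium and the same cell line, so that no condition represents cells grown in serum. Another 6 of the 18 arrays carried a title and a source name that named different treatments, and they were assigned to no condition.

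In the integrated stress response, 1 of several kinases (EIF2AK1 to EIF2AK4) phosphorylates the translation initiation factor eIF2 when cells meet misfolded proteins in the endoplasmic reticulum, lack of amino acids or heme, or viral RNA. General translation then drops, whereas the mRNA of ATF4 is translated better, and ATF4 protein activates genes of amino acid supply and redox balance. ATF4 also raises other transcription factors, DDIT3 (CHOP) and ATF3 among them, and the phosphatase subunit PPP1R15A, through which eIF2 is dephosphorylated again. Because ATF4 is controlled largely at translation, its mRNA level is an incomplete view of the response, and the arrays measured mRNA only.

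ATF4 binds DNA together with a C/EBP protein at a composite element that is written here TGATGNAA, and ATF and CREB factors bind the cAMP response element TGACGTCA. Both were searched on both strands in the 250 bases before the RefSeq start sites of build GRCh38.p14, and no stretch of 8 bases can match both. Of the 10 genes, 9 had such a window, 16 windows in all, and NUPR1 was not matched. The composite element was found before CHAC1, ATF3 and CEBPG, in 3 of the 9 genes, against 3.89% of 27305 genes. The cAMP response element was found before PPP1R15A, in 1 of the 9 genes, against 2.03% of all genes. These are matches of letters in a window, with no measurement of binding. The sequences that hold a match are shown 5′ to 3′ on the plus strand, with the match in capitals, since these 4 genes belong to the regulators whose signals are compared below. The CHAC1 window is chr15:40953221-40953470, and its match reads as the reverse complement of the element. The ATF3 window is chr1:212565157-212565406, before the more upstream of its starts, and the PPP1R15A window is chr19:48872171-48872420. For CEBPG, the match at chr19:33374071-33374078 lies inside the annotated gene, before its second start, and only the 30 bases around it are given.
CHAC1: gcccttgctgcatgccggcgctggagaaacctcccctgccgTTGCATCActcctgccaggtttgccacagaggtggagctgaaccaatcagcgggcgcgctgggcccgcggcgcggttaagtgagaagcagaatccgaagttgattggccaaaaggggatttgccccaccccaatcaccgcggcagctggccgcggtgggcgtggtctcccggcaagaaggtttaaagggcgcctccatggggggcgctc
ATF3: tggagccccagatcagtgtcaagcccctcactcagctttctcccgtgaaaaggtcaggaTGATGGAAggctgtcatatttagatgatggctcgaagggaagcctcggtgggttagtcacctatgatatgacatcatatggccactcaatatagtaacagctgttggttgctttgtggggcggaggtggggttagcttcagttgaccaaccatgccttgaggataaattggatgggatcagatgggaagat
PPP1R15A: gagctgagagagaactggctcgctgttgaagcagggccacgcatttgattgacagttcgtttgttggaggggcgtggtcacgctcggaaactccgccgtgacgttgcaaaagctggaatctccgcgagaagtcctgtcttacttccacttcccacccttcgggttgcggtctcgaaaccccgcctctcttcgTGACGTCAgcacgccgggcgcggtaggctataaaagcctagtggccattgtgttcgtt
CEBPG: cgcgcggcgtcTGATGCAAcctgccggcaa

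Signals are log2 values after GC-RMA normalization, and the tests took in those probe sets that were above 8.84 in linear signal (3.14 on the log2 scale) on both arrays of at least 1 condition. This kept 24151 probe sets, 15 of the 16 for the regulators among them. The one left out was an ATF3 probe set at or near the lowest value of 2.23 on the arrays. All 10 genes were present on both N arrays, without drug. Each gene is described by its tested probe set with the highest mean, and the other probe sets are named where they differ. Signals were not compared between genes, since probe sets differ in affinity. Of the markers of this line, VIM, CD44, CAV1, MSN and AXL were present on 12 of 12 arrays, all 5 of those listed as high. Of the 5 listed as low, PGR and CDH1 were under the threshold on all 12 and ESR1 on all but 1, whereas ERBB2 (8.03 to 8.53) and EPCAM (6.01 to 8.02) were present on all 12. Of the 3 markers of other cells, the leukocyte gene PTPRC was under the threshold on all 12, and the fibroblast gene COL1A1 (6.63 to 7.79) and the endothelial gene PECAM1 (3.78 to 7.07) were present on all 12. PECAM1 fell with both drugs, and the part of these markers in the results was not tested. The 3′ to 5′ difference of the ACTB control probe sets, a sign of RNA quality, ran from -0.31 to -0.21 on the epirubicin arrays and from -0.04 to 0.32 on the other 8. That of the GAPDH control probe sets did not set the epirubicin arrays apart (0.42 to 0.48, against 0.39 to 0.49 on the other 8). The part of RNA quality was not tested either.

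The replicate arrays of N epi stood apart from each other in these genes. Between replicate 1 and replicate 2 of N epi, the 10 genes differed by a median of 1.88 log2 units (from -0.48 to 3.93), where the median over all tested probe sets was 0.00. Without regard to sign, the median difference over all tested probe sets of N epi was 0.20. CEBPB was at 8.04 on N epi replicate 1 and at 11.97 on replicate 2, and DDIT3 at 5.56 and 9.08. ATF4, CEBPG, CHAC1 and NUPR1 differed by at most 0.64 log2 units in size between the same arrays. In H, all 10 genes were lower on replicate 2, by a median of 0.94, while the paclitaxel replicates differed by medians of -0.13 and -0.18. The plot of replicate differences shows the widest range in N epi. ATF4, CEBPG and CHAC1 differed more in H (-0.93, -0.95 and -1.62), and NUPR1 differed most in N (1.13). For each gene, 1 estimate of the spread was shared by all conditions. The N epi pair therefore widened the error of CEBPB, DDIT3, SESN2, TRIB3, ATF3 and PPP1R15A in every comparison. Calls of the regulators that change without N epi replicate 2 are given both ways. The study describes its replicates as biological and from independent experiments.

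**Figure D1:**
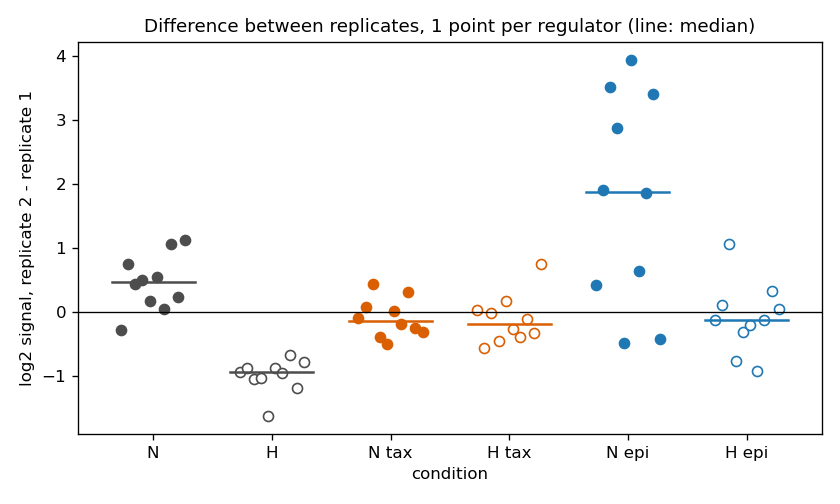
Difference in log2 signal between replicate 2 and replicate 1 (y axis) in each of the 6 conditions (x axis), with 1 point for each of the 10 regulators and a line at their median. The N epi points reach from -0.48 to 3.93, and the H points all lie below 0.

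Paclitaxel raised most of the regulators, at both oxygen levels. In N tax, 8 of 10 genes were higher than in N by limma at an adjusted p under 0.05, where 9.49% of all tested probe sets were called higher and 13.8% lower. In H tax, 9 of 10 were higher than in H, where 13% of all tested probe sets were called higher and 17% lower. All 10 estimates were above 0 at each oxygen level. The median log2 change was 2.97 in normoxia and 2.96 in hypoxia, and that of 11197 named genes was -0.03 and -0.01. The paclitaxel arrays lay above the control arrays of the same oxygen level, without overlap, for 10 of 10 genes in normoxia and in hypoxia, which was so for 32.5% of probe sets in each comparison. RNA was taken from whole cultures, so that a larger share of responding cells and more mRNA per cell cannot be told apart.

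**Figure D2:**
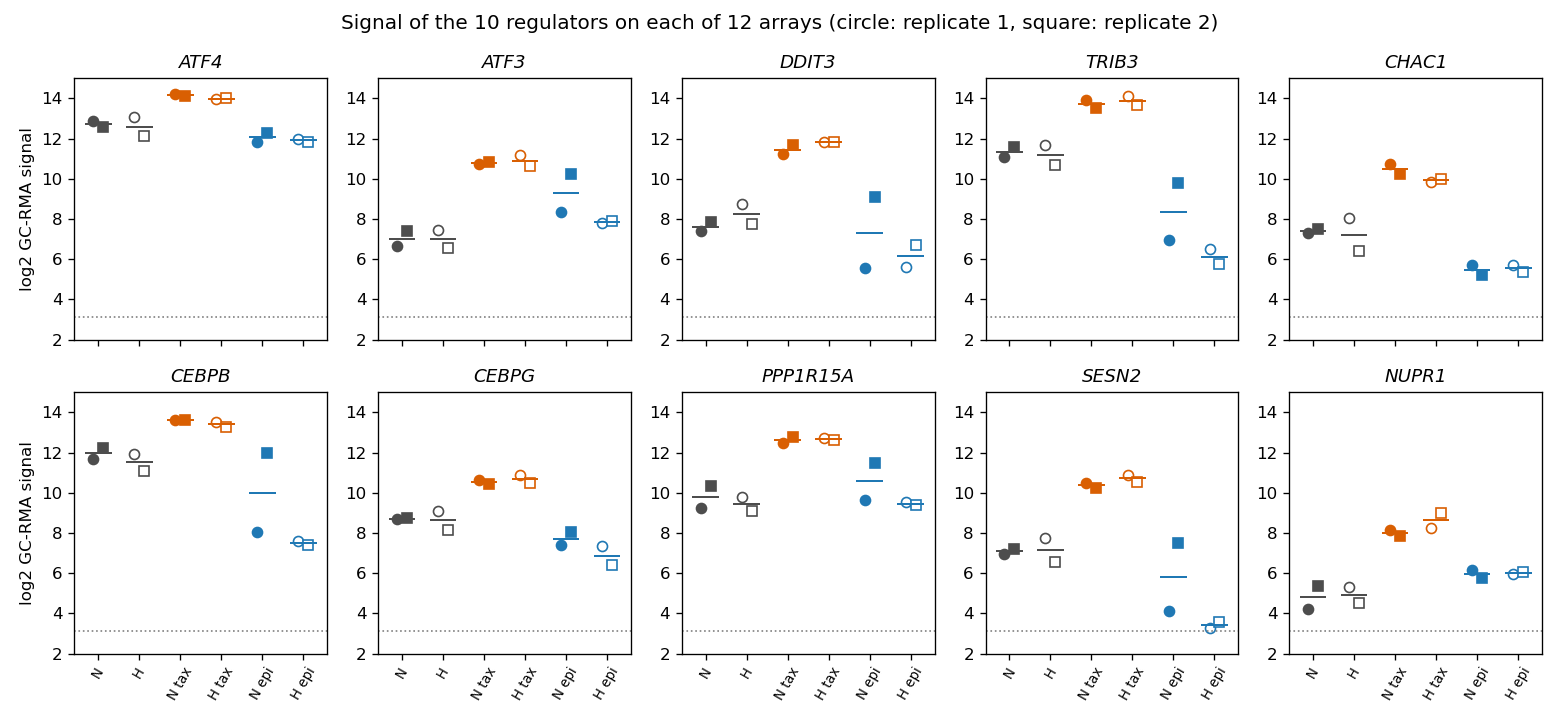
Signal (log2, y axis) of each of the 10 regulators on the 12 arrays, by condition (x axis). Circles are replicate 1, squares are replicate 2, the short line is the mean, and the dotted line is the presence threshold of 3.14. For every gene the means of N tax and H tax are the highest, and the N epi symbols of CEBPB, DDIT3 and SESN2 lie far apart.

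Among the transcription factors, ATF4 itself had signals of 12.87 and 12.59 in N and of 14.22 and 14.14 in N tax. It was at 13.07 and 12.14 in H and at 13.98 and 14.02 in H tax. ATF4 thus rose by 1.45 log2 units in normoxia (standard error 0.28, limma adjusted p = 0.00774) and by 1.39 in hypoxia (standard error 0.28, adjusted p = 0.00655). DDIT3, which encodes the pro-apoptotic factor CHOP, was at 7.40 and 7.85 in N and at 11.23 and 11.67 in N tax. In hypoxia its signals were 8.77 and 7.74 without drug and 11.82 and 11.81 with paclitaxel. These were rises of 3.83 (standard error 0.96, adjusted p = 0.0227) and 3.56 log2 units (adjusted p = 0.0234), the former equal to 14.2-fold. ATF3, a stress-induced factor of the same family, went from 6.64 and 7.40 in N to 10.75 and 10.83 in N tax. It went from 7.43 and 6.56 in H to 11.19 and 10.62 in H tax. ATF3 had a rise of 3.77 in normoxia (standard error 0.57, adjusted p = 0.00273) and 3.91 in hypoxia (adjusted p = 0.0016), and its second tested probe set rose by 4.10 and 4.04.

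Of the C/EBP members, partners of ATF4 on DNA, CEBPG rose and CEBPB did not pass. CEBPG was at 8.67 and 8.73 in N and at 10.63 and 10.45 in N tax, a rise of 1.84 log2 units (standard error 0.38, limma adjusted p = 0.011). It was at 9.10 and 8.16 in H and at 10.89 and 10.51 in H tax, a rise of 2.07 (adjusted p = 0.00473). CEBPB was at 11.68 and 12.23 in N against 13.60 and 13.62 in N tax, and at 11.95 and 11.08 in H against 13.54 and 13.27 in H tax. Although its arrays did not overlap, CEBPB did not pass in normoxia (1.65, 95% interval -0.65 to 3.96, adjusted p = 0.289) or in hypoxia (1.89, -0.42 to 4.19, adjusted p = 0.204). The same changes of CEBPB had adjusted p values of 0.00771 and 0.00334 without N epi replicate 2. NUPR1, a small chromatin-associated stress protein, was at 4.24 and 5.37 in N and at 5.32 and 4.54 in H. It reached 8.15 and 7.84 in N tax and 8.25 and 9.00 in H tax. NUPR1 rose by 3.19 (standard error 0.42, adjusted p = 0.00144) and by 3.70 log2 units (adjusted p = 0.00049).

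PPP1R15A, the stress-induced subunit that directs a phosphatase to eIF2, was at 9.25 and 10.32 in N and at 12.47 and 12.78 in N tax. In hypoxia it was at 9.78 and 9.12 without drug and at 12.72 and 12.62 with paclitaxel. It rose by 2.85 log2 units (standard error 0.57, limma adjusted p = 0.00897) and by 3.22 (adjusted p = 0.00366), and its other probe set by 2.89 and 3.48. PPP1R15A is the gene with the cAMP response element shown above.

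The effectors and feedback inhibitors rose as well. TRIB3, a pseudokinase that binds ATF4 and CHOP and limits their activity, was at 11.07 and 11.57 in N and at 13.93 and 13.54 in N tax. It was at 11.71 and 10.69 in H and at 14.11 and 13.66 in H tax. Its change was 2.42 in normoxia (95% interval 0.59 to 4.25, limma adjusted p = 0.0616), which missed the threshold, and it rose by 2.69 in hypoxia (adjusted p = 0.0354), a call that was lost with the replicate number as a block (adjusted p = 0.0519). The other TRIB3 probe set rose by 3.04 (adjusted p = 0.0078) and by 3.49 (adjusted p = 0.00294), and without N epi replicate 2 the first probe set passed in normoxia (adjusted p = 0.00548). CHAC1, an enzyme that breaks down glutathione, went from 7.31 and 7.49 in N to 10.74 and 10.24 in N tax, and from 8.04 and 6.42 in H to 9.84 and 10.02 in H tax. It rose by 3.09 (standard error 0.45, adjusted p = 0.00237) and by 2.70 log2 units (adjusted p = 0.00298). SESN2, a leucine sensor that restrains the mTORC1 pathway, was at 6.96 and 7.21 in N and at 10.50 and 10.25 in N tax. It was at 7.75 and 6.57 in H and at 10.87 and 10.55 in H tax. SESN2 rose by 3.29 (standard error 0.90, adjusted p = 0.032) and by 3.55 log2 units (adjusted p = 0.0187).

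The count in normoxia depended on single arrays. Of the 12 fits that each left out 1 array, ATF3, CHAC1 and NUPR1 passed in N tax against N in all 12, ATF4 in 11, PPP1R15A in 10, CEBPG in 9, DDIT3 in 8 and SESN2 in 6. The count of 8 genes became 4 without N replicate 1 or without N replicate 2, 5 without either N tax array, and 10 without either N epi array. In H tax against H, ATF3, ATF4, CEBPG, CHAC1, NUPR1 and PPP1R15A passed in all 12 fits, SESN2 in 9, DDIT3 in 8 and TRIB3 and CEBPB in 2. The lowest count there was 6, reached without H replicate 2, H tax replicate 1 or H tax replicate 2.

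With epirubicin, changes of the same genes went in both directions, and the normoxia counts were not above the shares over all tested probe sets. In N epi against N, 2 of 10 genes were higher and 2 were lower by limma, where 24.7% of all tested probe sets were called higher and 27.8% lower. In H epi against H, 1 was higher and 5 were lower, where 30.9% were called higher and 32.5% lower. The median change of the 10 genes was -0.82 in normoxia and -1.72 in hypoxia, and that of all named genes was -0.01 and -0.03. The plot of drug effects places the paclitaxel changes to the right of 0 for 10 of 10 genes and the epirubicin changes on either side of it.

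**Figure D3:**
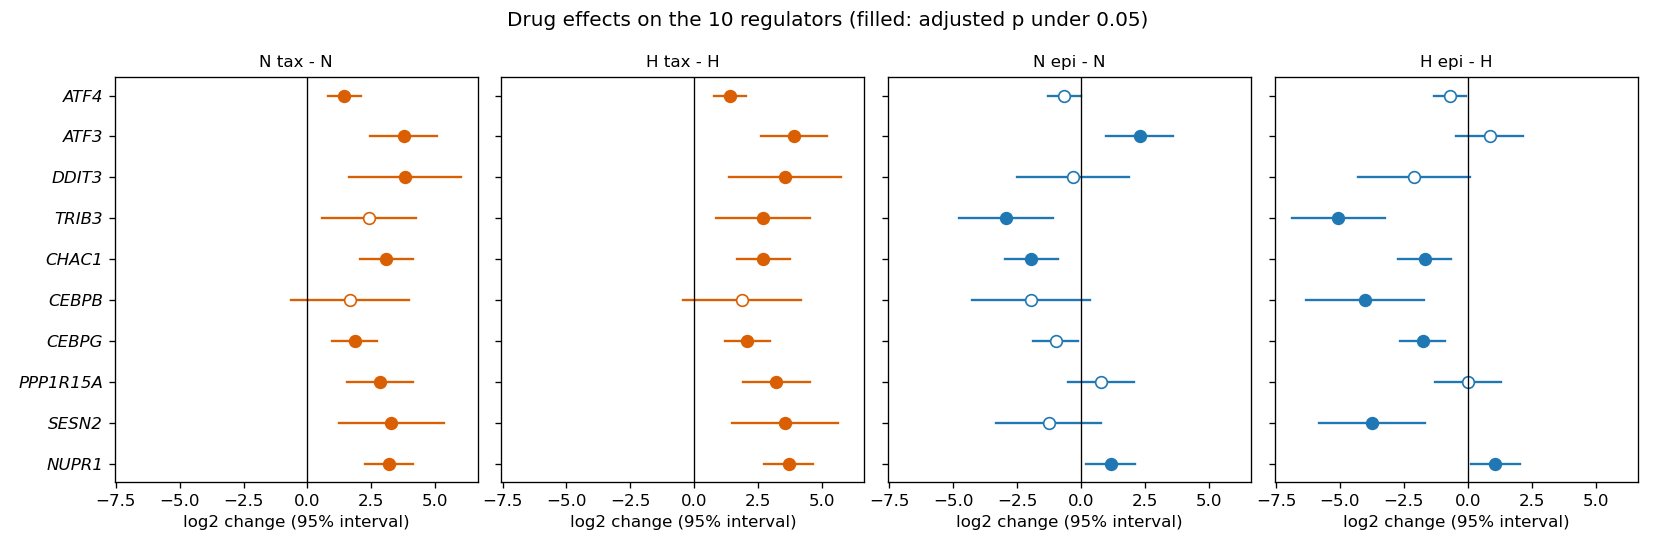
Log2 change of each regulator with paclitaxel (N tax - N, H tax - H) and with epirubicin (N epi - N, H epi - H), 2 arrays per condition. Points are limma estimates, bars are 95% intervals, and filled points passed an adjusted p of 0.05. The paclitaxel estimates run from 1.39 to 3.91, and the epirubicin estimates from -5.06 to 2.29.

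ATF3 and NUPR1 rose with epirubicin in normoxia. ATF3 was at 8.37 and 10.27 in N epi, above both N arrays, and rose by 2.29 log2 units (standard error 0.57, limma adjusted p = 0.0101). In H epi it was at 7.80 and 7.91, against 7.43 and 6.56 in H, and its change of 0.86 (95% interval -0.45 to 2.17, adjusted p = 0.218) missed the threshold. NUPR1 was at 6.18 and 5.76 in N epi and at 5.98 and 6.03 in H epi, all 4 above the control arrays. It rose by 1.16 (standard error 0.42, adjusted p = 0.044) and by 1.08 log2 units (adjusted p = 0.0487). Both NUPR1 calls were lost without N epi replicate 2 (adjusted p = 0.0625 and 0.0595), and each held in 5 of the 12 fits that left out 1 array. NUPR1 in N epi against N had an adjusted p of 0.282 without N replicate 1, and in H epi against H of 0.27 without H replicate 2. With the replicate number as a block, neither NUPR1 call passed (adjusted p = 0.0608 and 0.0661). The normoxia change of ATF3 was 1.34 without N epi replicate 2 (adjusted p = 0.033) and 3.25 without N epi replicate 1, and its call was lost without N replicate 1 (adjusted p = 0.0699). Its second probe set rose by 2.26 in normoxia (adjusted p = 0.0487), but passed in 1 of the 12 fits that left out 1 array, that without N epi replicate 1 (3.81), and in none of the others (0.71 without N epi replicate 2, adjusted p = 0.212). With the replicate number as a block, that probe set did not pass either (adjusted p = 0.0647).

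TRIB3 and CHAC1 fell with epirubicin at both oxygen levels. TRIB3 was at 6.94 and 9.81 in N epi and at 6.51 and 5.75 in H epi, below every control array. It fell by 2.94 log2 units in normoxia (standard error 0.80, limma adjusted p = 0.0148) and fell by 5.06 in hypoxia (adjusted p = 0.00069), or 7.68-fold and 33.4-fold. The other TRIB3 probe set fell less, with changes of -2.25 in normoxia (limma adjusted p = 0.0122) and -2.94 in hypoxia (adjusted p = 0.00233). These were falls of 4.74-fold and 7.69-fold. The normoxia change of TRIB3 was -4.38 without N epi replicate 2 and -1.51 without N epi replicate 1, so that its size depended on the array kept. The call was lost without N replicate 2 (adjusted p = 0.0796). CHAC1 was at 5.70 and 5.22 in N epi and at 5.70 and 5.39 in H epi, and fell by 1.94 (standard error 0.45, adjusted p = 0.00756) and fell by 1.69 log2 units (adjusted p = 0.0107). In hypoxia CHAC1 did not pass without H epi replicate 2 (adjusted p = 0.0591).

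SESN2, CEBPB and CEBPG fell with epirubicin in hypoxia. SESN2 was at 4.12 and 7.52 in N epi, which enclosed the N arrays, and at 3.26 and 3.58 in H epi, close to the presence threshold. It fell by 3.74 log2 units in hypoxia (standard error 0.90, limma adjusted p = 0.00625), and its change in normoxia was -1.27 (95% interval -3.33 to 0.80). Its second probe set was under the threshold on both H epi arrays and at least 4.23-fold lower than in H (adjusted p = 0.0108). CEBPB was at 8.04 and 11.97 in N epi and at 7.58 and 7.38 in H epi. It fell by 4.03 in hypoxia (standard error 1.01, adjusted p = 0.00748) and changed by -1.95 in normoxia (-4.26 to 0.35, adjusted p = 0.136). In hypoxia CEBPB missed the threshold without H replicate 1 (adjusted p = 0.0512). CEBPG was at 7.39 and 8.04 in N epi and at 7.33 and 6.42 in H epi, a fall of 1.75 in hypoxia (adjusted p = 0.00392) against -0.99 in normoxia (adjusted p = 0.0598). The second CEBPG probe set changed by -0.22 in hypoxia (adjusted p = 0.659), so that the fall rests on 1 of 2 probe sets.

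DDIT3, ATF4 and PPP1R15A did not pass with epirubicin at either oxygen level. DDIT3 was at 5.56 and 9.08 in N epi, a range that enclosed both N arrays, and at 5.62 and 6.69 in H epi. Its change was -0.30 in normoxia (95% interval -2.49 to 1.89, limma adjusted p = 0.821) and -2.10 in hypoxia (-4.29 to 0.09, adjusted p = 0.0853). ATF4 was at 11.86 and 12.29 in N epi and at 11.98 and 11.85 in H epi, each below the control arrays of its oxygen level. Its changes were -0.65 (-1.29 to -0.02, adjusted p = 0.0794) and -0.69 (-1.32 to -0.05, adjusted p = 0.0583). PPP1R15A was at 9.64 and 11.50 in N epi and at 9.52 and 9.40 in H epi, with changes of 0.79 (-0.51 to 2.09) and 0.01 (-1.28 to 1.31).

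The epirubicin result in normoxia turned on which N epi array was kept. With N epi replicate 2 left out, 1 gene was higher (ATF3) and 6 were lower than in N. DDIT3 then changed by -2.06 log2 units (limma adjusted p = 0.0144), SESN2 by -2.97 (adjusted p = 0.00125), CEBPB by -3.92 (adjusted p = 0.000146) and CEBPG by -1.31 (adjusted p = 0.0461). With N epi replicate 1 left out, the change of DDIT3 was 1.46, that of SESN2 0.43 and that of CEBPB 0.01, none past the test, and PPP1R15A was higher by 1.72 (adjusted p = 0.0162). In H epi against H, DDIT3 passed without N epi replicate 2 (adjusted p = 0.00386). The direction of DDIT3 and SESN2 in normoxia therefore changed with the array left out. CEBPG is counted as lower by 1 of its 2 probe sets, and the other changed by -0.58 without N epi replicate 2. Counts were 2 without N replicate 1 and from 3 to 7 without each other array.

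Set against each other, the drugs left the regulators at different levels. In N epi, 9 of 10 genes were lower than in N tax by limma, where 31.7% of all tested probe sets were called lower and 30.3% higher. In H epi, 10 of 10 were lower than in H tax, where 34.3% were called lower and 33.9% higher. The epirubicin arrays lay below the paclitaxel arrays without overlap for 10 of 10 genes at each oxygen level, as did 41% of all probe sets. In hypoxia TRIB3 was 215-fold lower (-7.75, standard error 0.80, adjusted p = 6.08e-05), SESN2 157-fold (adjusted p = 0.000148), CEBPB 60.6-fold (adjusted p = 0.000845) and DDIT3 50.5-fold lower (adjusted p = 0.000815). The other TRIB3 probe set was 86.4-fold lower (limma adjusted p = 3.25e-05). The first SESN2 probe set was close to the presence threshold in H epi (3.26 and 3.58). Its second was under the threshold on both H epi arrays and at least 48.3-fold lower (limma adjusted p = 0.000134). The smallest difference there was that of ATF4, which was 4.23-fold lower (-2.08, adjusted p = 0.000224). In normoxia the exception was ATF3 (-1.48, 95% interval -2.79 to -0.17, adjusted p = 0.0506), which passed in 1 of the 12 fits that left out 1 array, that without N epi replicate 2 (-2.43, adjusted p = 0.00212), and was at -0.53 without N epi replicate 1 (adjusted p = 0.339). CEBPB and PPP1R15A lost their normoxia call without N tax replicate 2 (adjusted p = 0.0556 and 0.0649), CEBPB also without N tax replicate 1 (0.0569) and PPP1R15A also without N epi replicate 1 (0.06). These comparisons use the same drug arrays as those with the controls and are no independent evidence. The doses and the drugs differ together, so that dose and drug cannot be told apart.

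The order of the condition means followed 3 patterns. For ATF4, DDIT3, TRIB3, CHAC1, CEBPB, CEBPG and SESN2, 7 genes, the paclitaxel means were above the control means, and these were above the epirubicin means. For ATF3 and NUPR1 the epirubicin means lay between the paclitaxel means and the control means. For PPP1R15A the paclitaxel means were highest and the other 4 were interleaved. Neighbours in the order that had the same treatment and differed in oxygen did not pass the test for any of the 10 genes.

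Hypoxia alone did not move these genes past the test. By limma, 0 of 10 genes changed in H against N (0 at an unadjusted p under 0.05), where 9.51% of all tested probe sets were called. Under paclitaxel, 0 of 10 changed in H tax against N tax (0 at an unadjusted p under 0.05), where 1.33% of probe sets were called. Under epirubicin, 0 of 10 changed in H epi against N epi, with 4 at an unadjusted p under 0.05, where 1.52% were called. The median changes of the 10 genes were -0.10, 0.13 and -1.14. The intervals differed widely between genes. ATF4 had a change of -0.12 in control cells (95% interval -0.76 to 0.51) and of -0.18 under paclitaxel (-0.82 to 0.46). DDIT3 had a change of 0.63 in control cells (-1.56 to 2.82), an interval that leaves room for changes in either direction.

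**Figure D4:**
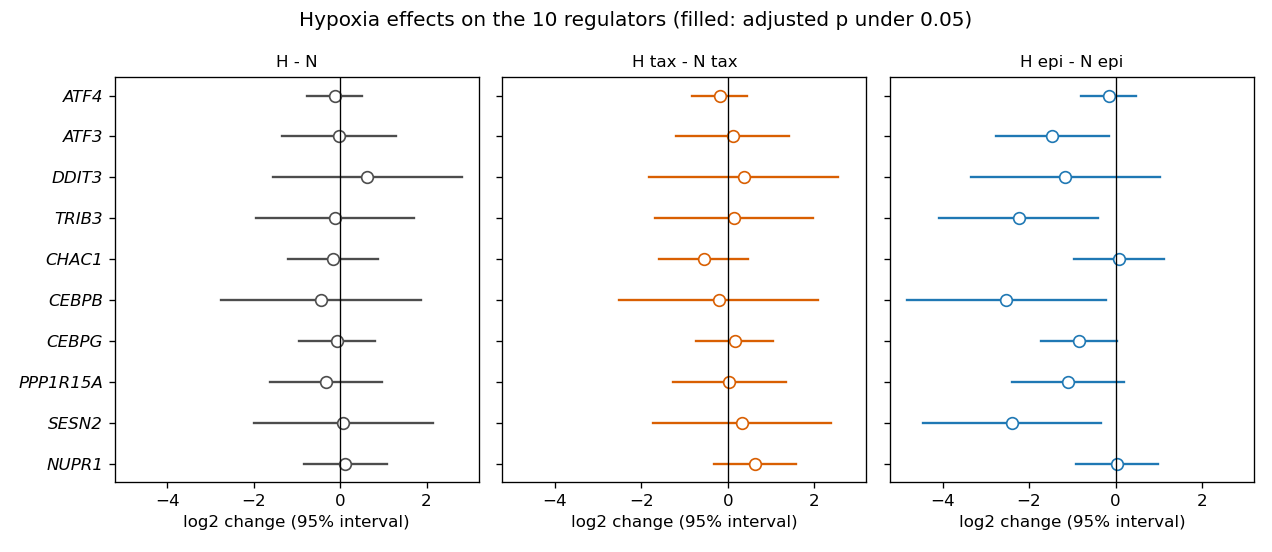
Log2 change of each regulator with hypoxia in control cells (H - N), under paclitaxel (H tax - N tax) and under epirubicin (H epi - N epi), 2 arrays per condition. Points are limma estimates and bars are 95% intervals. All points are open, since none passed an adjusted p of 0.05, and the epirubicin estimates reach down to -2.53.

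Under epirubicin, the 4 genes at an unadjusted p under 0.05 were CEBPB, SESN2, TRIB3 and ATF3, all lower in H epi. CEBPB had a change of -2.53 (95% interval -4.83 to -0.22, limma adjusted p = 0.259) and SESN2 of -2.40 (-4.46 to -0.34, adjusted p = 0.232). TRIB3 had a change of -2.24 (adjusted p = 0.211) and ATF3 of -1.46 (adjusted p = 0.25). The H epi arrays lay below the N epi arrays without overlap for 6 of 10 genes, as for 18.4% of all probe sets. When N epi replicate 1 was left out, 6 genes passed as lower in H epi, with CEBPB at -4.49 (adjusted p = 0.000214) and DDIT3 at -2.92 (adjusted p = 0.00949). When N epi replicate 2 was left out, the adjusted p values of the 10 genes were all from 0.629 to 1.

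The hypoxia effect was also compared between treatments. By limma, 0 of 10 genes differed in their hypoxia effect between paclitaxel and control cells (0 at an unadjusted p under 0.05), where 0.12% of all probe sets were called. Between epirubicin and control cells it was again 0 of 10 (0 at an unadjusted p under 0.05), where 3.96% were called. ATF4 had differences of -0.06 (95% interval -0.96 to 0.84) and -0.03 (-0.93 to 0.87). The widest gap was that of SESN2 under epirubicin, -2.48 (-5.40 to 0.44, adjusted p = 0.318). A fit without N epi replicate 1 had 5 genes that passed as more strongly lowered by hypoxia under epirubicin, with CEBPB at -4.05 (adjusted p = 0.0017).

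Known targets of ATF4 and CHOP, 30 genes of amino acid transport, amino acid synthesis and tRNA charging among others, were counted next, and 25 of them were tested. With paclitaxel, 16 rose in normoxia (24 of 25 estimates above 0) and 18 in hypoxia (23 above 0), with median changes of 1.07 and 1.09 over the 25. Over all tested probe sets, 9.49% were called higher in normoxia and 13% in hypoxia. CTH, which makes cysteine from cystathionine, was at 7.28 and 8.19 in N and at 10.94 and 10.90 in N tax, and rose by 3.18 log2 units (limma adjusted p = 0.00971). SLC3A2, the heavy chain of amino acid transporters, was at 9.82 and 10.15 in N and at 12.88 and 12.87 in N tax, and rose by 2.89 (adjusted p = 0.000196). ASNS, asparagine synthetase, rose by 2.69 (adjusted p = 0.00592), and PHGDH, the first enzyme of serine synthesis, by 2.44 (adjusted p = 0.000583). The N tax arrays of these genes lay above the N arrays without overlap. In hypoxia GDF15, a secreted stress cytokine, rose by 4.78 (adjusted p = 0.0243). Without N epi replicate 2 the counts were 19 and 19 higher, with 0 and 1 lower.

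With epirubicin, 8 of the 25 targets rose and 2 fell in normoxia, with a median of 0.22, beside 24.7% higher and 27.8% lower over all tested probe sets. In hypoxia 5 rose and 6 fell, with a median of 0.36, beside 30.9% and 32.5%. The counts of higher targets in normoxia and of lower ones in hypoxia were thus near the background. DDIT4, an inhibitor of mTORC1 that is also induced by hypoxia, was at 12.19 and 12.40 in N, at 3.86 and 10.28 in N epi, at 14.09 and 13.84 in H and at 3.80 and 3.30 in H epi. It fell by 5.22 in normoxia (limma adjusted p = 0.0236) and fell by 10.42 in hypoxia (adjusted p = 0.000575). VLDLR, a lipoprotein receptor, fell by 2.15 (adjusted p = 0.00275) and fell by 5.45 log2 units (adjusted p = 1.96e-05). EIF4EBP1, a repressor of cap-dependent translation, rose by 1.13 (adjusted p = 0.00139) and by 1.10 (adjusted p = 0.000908). PCK2, a mitochondrial enzyme of glucose synthesis, rose by 0.93 in normoxia (adjusted p = 0.0203). With N epi replicate 2 left out, 4 rose and 2 fell in normoxia, and 5 rose and 5 fell in hypoxia. Against paclitaxel, 21 of the 25 were lower with epirubicin and 1 was higher, at each oxygen level. Over all tested probe sets, 31.7% were lower and 30.3% higher in normoxia, and 34.3% and 33.9% in hypoxia. With hypoxia alone, VLDLR rose by 2.34 (adjusted p = 0.0109) and ERO1A, an oxidase of the endoplasmic reticulum, by 1.37 (adjusted p = 0.00138). No other target passed, beside 9.51% of all tested probe sets called in either direction.

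The other arms of the endoplasmic reticulum stress response, which run through IRE1 (ERN1) and ATF6, were represented by 15 tested genes. Paclitaxel raised 11 in normoxia, with a median of 1.31, and 8 in hypoxia, with a median of 0.80. These counts stand beside 9.49% and 13% of all tested probe sets called higher. At each oxygen level, 15 of 15 estimates were above 0. DNAJB9, a chaperone cofactor, was at 9.92 and 10.26 in N and at 13.37 and 13.31 in N tax, and rose by 3.25 (limma adjusted p = 0.0177). HYOU1, a chaperone, rose by 1.63 (adjusted p = 0.000277), and MANF, a secreted protein of the reticulum, by 1.51 (adjusted p = 0.000167). Epirubicin raised 3 and lowered 4 of the 15 in normoxia, beside 24.7% and 27.8% of all tested probe sets. It raised 2 and lowered 10 in hypoxia, beside 30.9% and 32.5%, where HERPUD1 fell by 5.50 (adjusted p = 0.000441) and XBP1 fell by 5.37 (adjusted p = 0.00162). HERPUD1 takes part in the degradation of proteins from the reticulum, and XBP1 encodes the factor activated by IRE1. Hypoxia alone raised 5 of the 15, PDIA4 (1.30, adjusted p = 0.00125) and HSP90B1 (1.17, adjusted p = 0.00172) among them, with 12 estimates above 0. Over all tested probe sets, 9.51% were called in either direction. For 4 of the 15 the hypoxia effect was lower under epirubicin than in control cells, beside 3.96% of all tested probe sets called in either direction. Without N epi replicate 2, paclitaxel raised 15 of 15 in normoxia and 11 in hypoxia, hypoxia raised 8, epirubicin raised 3 and lowered 6 in normoxia, and the last count was 2.

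**Figure D5:**
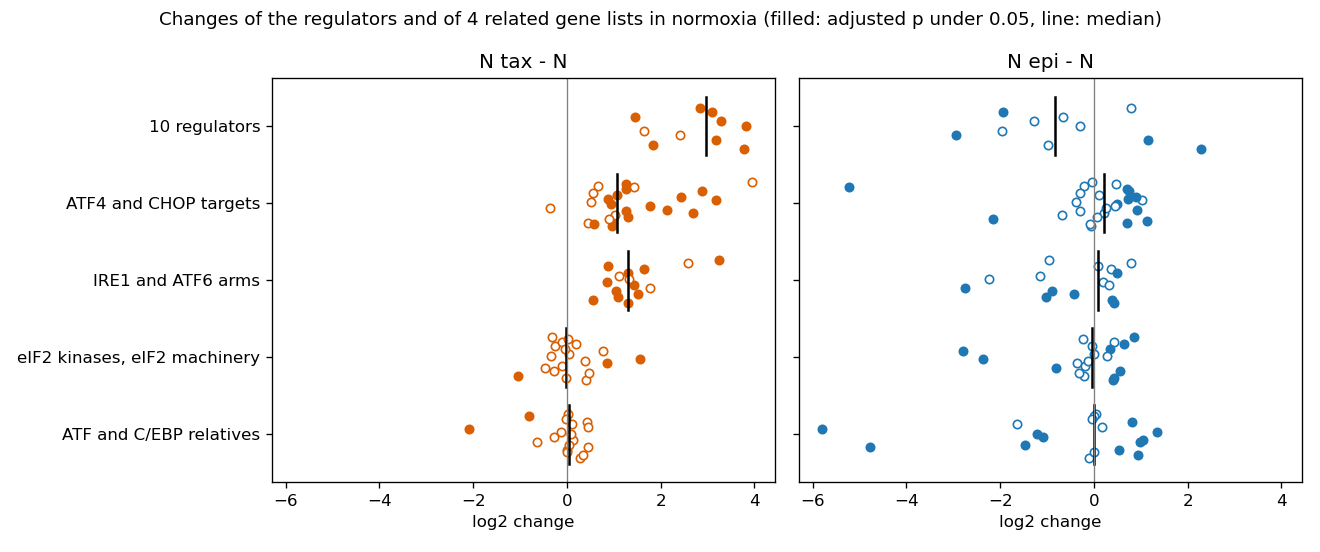
Log2 change (x axis) in N tax against N (left) and in N epi against N (right) of the 10 regulators and of the genes of 4 related lists, 1 point per gene, filled where the adjusted p was under 0.05, with a line at the median. The medians with paclitaxel are 2.97 for the regulators, 1.07 for the targets and 1.31 for the IRE1 and ATF6 arms, and close to 0 for the other lists.

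The eIF2 kinases and the eIF2 machinery, 19 tested genes, held 2 that rose, 1 that fell and 16 that did not pass with paclitaxel in normoxia. Over all tested probe sets, 9.49% were called higher and 13.8% lower, so that the count of rises was near the background. EIF2AK3 (PERK), the kinase of the endoplasmic reticulum, was at 8.20 and 8.05 in N and at 9.81 and 9.56 in N tax, a rise of 1.56 log2 units (limma adjusted p = 0.0363). DNAJC3, an inhibitor of eIF2 kinases, rose by 0.85 (adjusted p = 0.0455), and EIF2AK2 (PKR), the kinase that senses double-stranded RNA, fell by 1.05 (adjusted p = 0.000828). With epirubicin, 6 of the 19 rose and 3 fell in normoxia, beside 24.7% and 27.8% of all tested probe sets, and 8 rose and 4 fell in hypoxia, beside 30.9% and 32.5%. EIF2AK3 was at 4.94 and 6.59 in N epi and at 3.44 and 3.29 in H epi, and fell by 2.36 (adjusted p = 0.00272) and fell by 5.37 log2 units (adjusted p = 3e-05). PPP1R15B, the constitutive counterpart of PPP1R15A, fell by 2.79 (adjusted p = 0.011) and fell by 5.20 (adjusted p = 0.000316), where PPP1R15A had changes of 0.79 and 0.01. EIF2AK3 was also lower in H epi than in N epi (-2.40, adjusted p = 0.0464), and its hypoxia effect differed between epirubicin and control cells (-3.00, adjusted p = 0.0398). Hypoxia alone lowered 2 of the 19, EIF2S1 (-0.67, adjusted p = 0.0102) and EIF2B5 (-0.46, adjusted p = 0.0376), beside 9.51% of all tested probe sets called in either direction.

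Relatives of the regulators in the ATF, CREB, C/EBP, CHAC, Tribbles and sestrin families, 18 tested genes, showed no rise past the test with paclitaxel in normoxia, where 0 rose and 2 fell by limma (4 of the 18 at an unadjusted p under 0.05 in either direction). Over all 37 probe sets of these genes, 2 were higher and 3 lower, beside 9.49% and 13.8% of all tested probe sets. TRIB2, a relative of TRIB3, was at 8.56 and 8.67 in N and at 6.65 and 6.39 in N tax, and fell by 2.10 log2 units (limma adjusted p = 0.000766), where the change of TRIB3 was 2.42. CHAC2, a relative of CHAC1, fell by 0.82 (adjusted p = 0.0377). In hypoxia ATF5, a relative of ATF4, rose by 0.87 (adjusted p = 0.0047) and CREB3 by 0.73 (adjusted p = 0.00901), and TRIB2 fell by 1.93 (adjusted p = 0.000689). With epirubicin, 6 of the 18 rose and 5 fell in normoxia, near the 24.7% and 27.8% of all tested probe sets. In hypoxia 8 rose and 8 fell (7 and 7 without N epi replicate 2), beside 30.9% and 32.5%. TRIB1 was at least 109-fold and TRIB2 at least 36.0-fold lower in H epi than in H, with both H epi arrays under the presence threshold. ATF7 rose by 1.34 (adjusted p = 0.000501) in normoxia and by 1.97 (adjusted p = 3.88e-05) in hypoxia.

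Over the 12 arrays, the 10 regulators varied together. The 45 pairs had Pearson correlations from 0.44 (CEBPB and NUPR1) to 0.98 (ATF4 and CHAC1), with a median of 0.88, which is a description since the arrays share their drugs. Among other genes, the patterns most like that of SESN2 were DNAJB9 (r = 0.995), NCOA7 and NPIPA1, and those most like DDIT3 were DNAJB9 (0.983), NPIPA1 and IFIH1. For TRIB3 they were GOSR1 (0.996), OSER1 and KLHL29, and for CEBPB they were ZNF697 (0.996), JUNB (0.993) and RNF19B. SESN2, DDIT3, TRIB3 and CEBPB were the regulators with the widest ranges of condition means. ATF4, with the narrowest range (2.26 log2 units), was added to them. For ATF4 the most similar patterns were CARS1 (0.986), a tRNA synthetase gene, CHAC1, itself 1 of the 10 regulators, and ZNF397.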

How the data were processed

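RNA from MDA-MB-231 cells was measured on the HG-U133 Plus 2.0 array. The submitters' processing notes name GCRMA, without a version. The deposited values are log2 signals that the authors obtained with it, from 2.23 to 16.6. Deposited probe sets carry standard Affymetrix names, while the study's methods name other chip definitions. The 2 arrays per condition limit the precision. Gene symbols come from the annotation of the platform, updated: 41091 probe sets had a single symbol and 1801 had several and stayed unnamed, after 62 control probe sets were set aside. The presence threshold of 8.84 is 2 times the basal intensity in the study's methods. All 12 arrays entered 1 fit of 6 conditions with limma 3.58.1 (R 4.3.3, data.table version 1.17.8), with 6 residual and 2.28 prior degrees of freedom and 11 comparisons. P-values were two-sided, adjusted by Benjamini-Hochberg across all 24151 tested probe sets. Where both arrays of a condition were under the presence threshold, the fold was taken against the threshold and is given as "at least". The members and lists were chosen with earlier results of these data known. From each list, at most 4 genes per comparison were named, those with the largest change past the test, and similar patterns were ranked by Pearson correlation. CREB3 and CHAC2 are named as well to complete counts. Alternatives were a replicate block, each array left out, other presence filters, quantile normalization, median centring, a trended robust variance, only the conditions compared, any probe set of a gene, and the 6 unassigned arrays by either label. List counts without N epi replicate 2 were added after seeing the data. The fit was tested on simulated data.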

Additional observations from a re-analysis of the deposited data

Results flagged for a closer look

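Signals outside the comparisons appeared on the 6 arrays whose title and source name disagree. On the array titled N_TAX_3, with a source name for control cells in normoxia, 10 of 10 regulators lay above all 4 control arrays, and DDIT3 was at 11.23. On the array titled H_TAX_3, with a source name for control cells in hypoxia, 10 of 10 lay above them, and DDIT3 was at 11.74. On the arrays titled N_EPI_3 and H_EPI_3, with source names for paclitaxel, 2 and 1 lay above all 4 control arrays, and 6 lay below them on each. Which label of these arrays is right was not tested.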

How the results depend on the processing

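With 1 array left out, the number of regulators changed ranged from 4 to 10 in N tax and from 2 to 7 in N epi, each against N, and from 6 to 10 for H tax against H, 4 to 6 for H epi against H, 7 to 10 for N epi against N tax and 10 to 10 for H epi against H tax. It ranged from 0 to 6 for H epi against N epi, from 0 to 5 for its difference from the control hypoxia effect, and stayed at 0 for the other hypoxia comparisons. Without the presence filter, 4 genes changed in N tax against N and 1 in N epi against N. Fits of the compared conditions only gave 5 for N epi against N tax and 1 against N. With the unassigned arrays added by title, 8 changed in N epi against N, 2 higher and 6 lower. When source names placed them instead, the count was 0 by limma in each of the 6 drug comparisons, and these log2 changes turned in sign: in N tax against N, TRIB3 (second probe set) -0.0287, CHAC1 -0.28 and SESN2 -0.22 and -0.0917, in N epi against N, NUPR1 -0.43, in H tax against H, TRIB3 -0.89 and CHAC1 -0.15, and in H epi against H, NUPR1 -0.47. The cause was not tested. With the replicate number as a block, 161 of 165 results for single probe sets kept their side of the threshold and 4 did not pass, with 8 genes changed in N tax against N, 3 in N epi against N, 8 in H tax against H, 5 in H epi against H, 9 in N epi against N tax, 10 in H epi against H tax and 0 in the hypoxia comparisons. Deviations of same-numbered arrays correlated between -0.18 and 0.30 over 15 pairs of conditions, with 3 above 0.1. Such values cannot decide whether the replicate numbers mark a pairing. Quantile normalization left 160 of 165 on their side of the threshold, median centring 160, a stricter presence filter 164 and a trended robust variance 162.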

Other observations

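On the 6 arrays assigned to no condition, ATF4 was at 12.77 (titled N_CTL_3), 12.62 (H_CTL_3), 14.31 (N_TAX_3), 14.07 (H_TAX_3), 12.16 (N_EPI_3) and 12.18 (H_EPI_3). TRIB3 was at 11.22 and 11.10 on the arrays titled N_CTL_3 and H_CTL_3, at 13.92 and 13.89 on N_TAX_3 and H_TAX_3, and at 6.93 and 5.84 on N_EPI_3 and H_EPI_3. CEBPB was at 7.93 on N_EPI_3, and SESN2 at 3.15. The source names give epirubicin for the arrays titled CTL, control cells for those titled TAX and paclitaxel for those titled EPI.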
